A study of Arabidopsis thaliana with 30 samples.

Results

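The flavonoid and anthocyanin enzyme genes are a named set of 10 of the 32833 Arabidopsis genes counted in this RNA-seq study. The members are listed by gene identifier, and no measured value enters that rule, but the list was drawn up with earlier results of these data known. It holds *CHS* (AT5G13930), *CHI* (AT3G55120), *F3H* (AT3G51240), *F3'H* (AT5G07990), *FLS1* (AT5G08640), *DFR* (AT5G42800), *LDOX* (AT4G22880), *UF3GT* (AT5G54060), *UGT75C1* (AT4G14090) and *TT19* (AT5G17220). In 9 of the 10 genes more than 3 reads were counted in at least 1 library, and these 9 were tested in every comparison. *F3H* was not measurable.

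Flavonoids are made from phenylalanine by way of coumaroyl-CoA. The early enzymes build and hydroxylate the flavonoid skeleton, after which flavonol synthase draws on the same intermediates to give colourless flavonols, and the late enzymes lead to the red and purple anthocyanins. Anthocyanins are then glycosylated and stored in the vacuole, and in Arabidopsis seedlings they colour the hypocotyl and cotyledons, more strongly under high light, sugar or stress. In Arabidopsis the early genes and *FLS1* are known targets of flavonol MYB factors, and the late genes are known targets of a complex of a MYB, a bHLH and a WD40 protein.

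The samples were whole seedlings, 5 days old, of 5 genotypes: *dxo1*, *dxo1*/*cDXO1*, *rnmt1-3*, *dxo1*/*NTE* and wild type (WT, Col-0). Each genotype was sampled after 3 h with 50 µM abscisic acid (ABA, a stress hormone) and after 3 h of mock treatment, with 3 libraries in each of the 10 groups and 30 libraries in all. DXO1 removes NAD caps from RNA with its catalytic C-terminal part, and its plant-specific N-terminal extension (NTE) activates RNMT1, the enzyme that methylates the mRNA cap. *dxo1* is a T-DNA insertion mutant. The *cDXO1* and *NTE* lines carry the catalytic part alone or the extension alone, each driven by the *DXO1* promoter in the *dxo1* background, so both also carry the *dxo1* insertion. *rnmt1-3* is a weak allele, since loss of RNMT1 kills the embryo. The question behind the genotypes is which activity of DXO1 a change in *dxo1* belongs to.

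Total counts ran between 17961410 and 23249299 per library (median 19825453). Reads at *DXO1* averaged 20.8 CPM (counts scaled to library size with TMM factors) in *dxo1* mock seedlings, against 44.5 CPM in WT mock seedlings. In the lines with a transgene they averaged 222 CPM under mock treatment and 259.9 CPM after ABA in *dxo1*/*cDXO1*, and 233 and 246 CPM in *dxo1*/*NTE*, against 44.5 and 41.8 CPM in WT. Of 3 green tissue markers, *RBCS1A* lay between 8406 and 10922 CPM and *CAB1* between 5810.1 and 9838 CPM in the 30 libraries, while *LHCB2.1* ran between 44.8 and 722 CPM and is given beside the members below. The 3 root markers summed to 41.9 to 43.1 CPM in *dxo1* mock, 40.7 to 45.7 in *dxo1*/*cDXO1* mock, 23.9 to 31.6 in *rnmt1-3* mock, 30.7 to 40.1 in *dxo1*/*NTE* mock and 21.6 to 41.4 in WT mock seedlings. The seed storage genes *CRA1*, *CRU3*, *OLE1* and *SESA1* had at most 18 counts in a library. The seed coat genes *BAN* and *TT12* had at most 3 and 6 counts. WT mock replicate 1 stood apart from its group: the common dispersion of the 3 WT mock libraries was 0.0400 with it and 0.00491 without it, and lay between 0.00386 and 0.0102 in the other 9 groups. Counts of called genes against WT mock are therefore also given without that library. In whole seedlings fewer cells of a type and less RNA per cell cannot be told apart. The study calls the libraries of a group biological replicates, and the sources used here do not say how the seedlings of each were kept apart, so p-values measure the spread between these libraries.

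*F3H* (chr3:19025192-19026872, plus strand), which hydroxylates naringenin, lies in the middle of the pathway but had 6 counts in all 30 libraries together. These fell in 4 libraries, with at most 3 in 1 library. Of its exon bases, 93.8% also lie in exons of AT3G51238, a gene on the opposite strand, which had counts in 1 library and at most 2. The same pattern held across the table. At most 3 counts in every library were found in 489 of the 508 protein-coding genes with over 90% of their exon bases inside an opposite-strand gene (96.3%), and in 3805 of the 20867 protein-coding genes with no such overlap (18.2%). The strand setting and the handling of reads that fall in more than 1 gene are not given in the sources used here, so a near-zero count at *F3H* gives no information on its RNA level, and *F3H* is left out of all further values. Among the members with a measurable level, *UGT75C1* shares 27.1% of its exon bases with opposite-strand genes, *TT19* 9.85% and *CHS* 0.117%, and the other 6 share none.

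**Figure D1:**
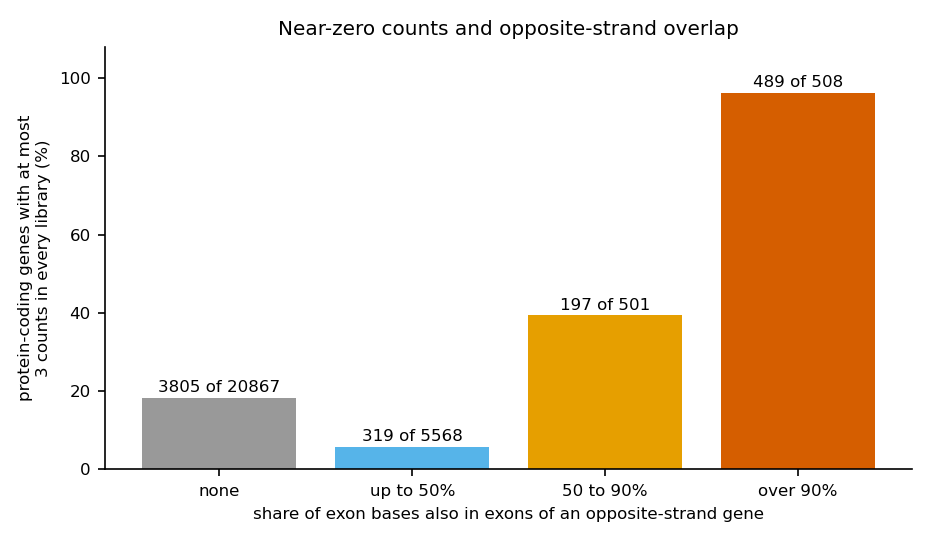
Share of protein-coding genes with at most 3 counts in every library (vertical axis, %), by the share of their exon bases that also lie in exons of an opposite-strand gene (horizontal axis). The bars stand at 18.2% with no overlap, 5.73% up to 50% overlap, 39.3% between 50% and 90%, and 96.3% above 90%, the class that holds *F3H*.

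Promoter sequence is shown for 4 members to set early and late genes with a common promoter element beside a late gene without it. The 250 bases before the annotated start of *CHS*, *DFR* and *UF3GT* hold the G-box CACGTG, the element bound by bZIP and bHLH factors, and those before *LDOX*, which moved with *DFR*, do not. Capitals mark CACGTG and its core ACGTG, read on both strands. In *DFR* the first capitals, at -157 to -153 from the start, are the core alone read from the other strand (CACGT), and the G-box lies at -14 to -9. The sequences are read 5′ to 3′ on the strand of the gene from the RefSeq TAIR10.1 genome, *CHS* from chr5:4488226-4488475 (plus strand), *DFR* from chr5:17166033-17166282 (minus strand), *UF3GT* from chr5:21938397-21938646 (minus strand) and *LDOX* from chr4:12006210-12006459 (minus strand).
CHS: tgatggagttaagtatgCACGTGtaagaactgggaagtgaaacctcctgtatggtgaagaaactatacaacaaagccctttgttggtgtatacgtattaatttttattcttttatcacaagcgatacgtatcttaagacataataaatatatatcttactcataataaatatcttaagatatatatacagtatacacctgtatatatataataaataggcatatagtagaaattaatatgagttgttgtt
DFR: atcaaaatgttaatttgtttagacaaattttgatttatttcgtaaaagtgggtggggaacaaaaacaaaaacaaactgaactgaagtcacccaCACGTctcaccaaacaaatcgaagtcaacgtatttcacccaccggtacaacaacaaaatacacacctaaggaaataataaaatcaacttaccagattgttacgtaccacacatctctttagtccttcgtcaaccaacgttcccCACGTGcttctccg
UF3GT: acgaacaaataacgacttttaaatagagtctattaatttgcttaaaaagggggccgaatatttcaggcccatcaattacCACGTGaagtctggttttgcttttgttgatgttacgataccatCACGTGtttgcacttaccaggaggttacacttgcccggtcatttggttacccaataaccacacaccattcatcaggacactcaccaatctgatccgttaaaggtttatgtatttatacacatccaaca
LDOX: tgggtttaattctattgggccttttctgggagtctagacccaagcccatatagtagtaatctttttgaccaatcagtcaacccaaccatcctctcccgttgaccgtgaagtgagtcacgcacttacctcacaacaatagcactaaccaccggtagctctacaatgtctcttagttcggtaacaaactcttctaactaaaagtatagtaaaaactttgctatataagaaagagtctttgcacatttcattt

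The G-box was present in this window in 4 of the 10 members (*CHS* at -233 to -228, *F3H*, *DFR*, and *UF3GT* at -171 to -166 and again at -128 to -123) and in 6.49% of the 27443 promoters of the same length. The core ACGTG, which is contained in the G-box, was in the same 4 members and in 22.9% of all. The general E-box CANNTG, which also includes the G-box, was in 7 members and 55.3% of all. Of the MYB elements searched, ACCAACC was in *UGT75C1* only (2.69% of all), while ACCTACC (1.16%) and ACCTAAC (2.46%) were in none. These matches are a description of the letters and no evidence of binding.

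Per transcript length, *CHS* was by far the highest of the 9 genes in both *dxo1* and WT mock seedlings. In *dxo1* mock seedlings, the mean level was 471 TPM (reads scaled for gene length and library, computed from the deposited counts and lengths) for *CHS*, 71.2 for *FLS1*, 49.6 for *DFR*, 29.5 for *CHI*, 22.5 for *LDOX*, 13.8 for *TT19*, 8.52 for *UGT75C1*, 7.0 for *F3'H* and 3.33 for *UF3GT*. In WT mock seedlings the order was *CHS* (121 TPM), *FLS1* (34.0), *CHI* (25), *DFR* (4.34), *F3'H* (4.06), *TT19* (3.57), *LDOX* (3.06), *UGT75C1* (2.96) and *UF3GT* (1.48).

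**Figure D2:**
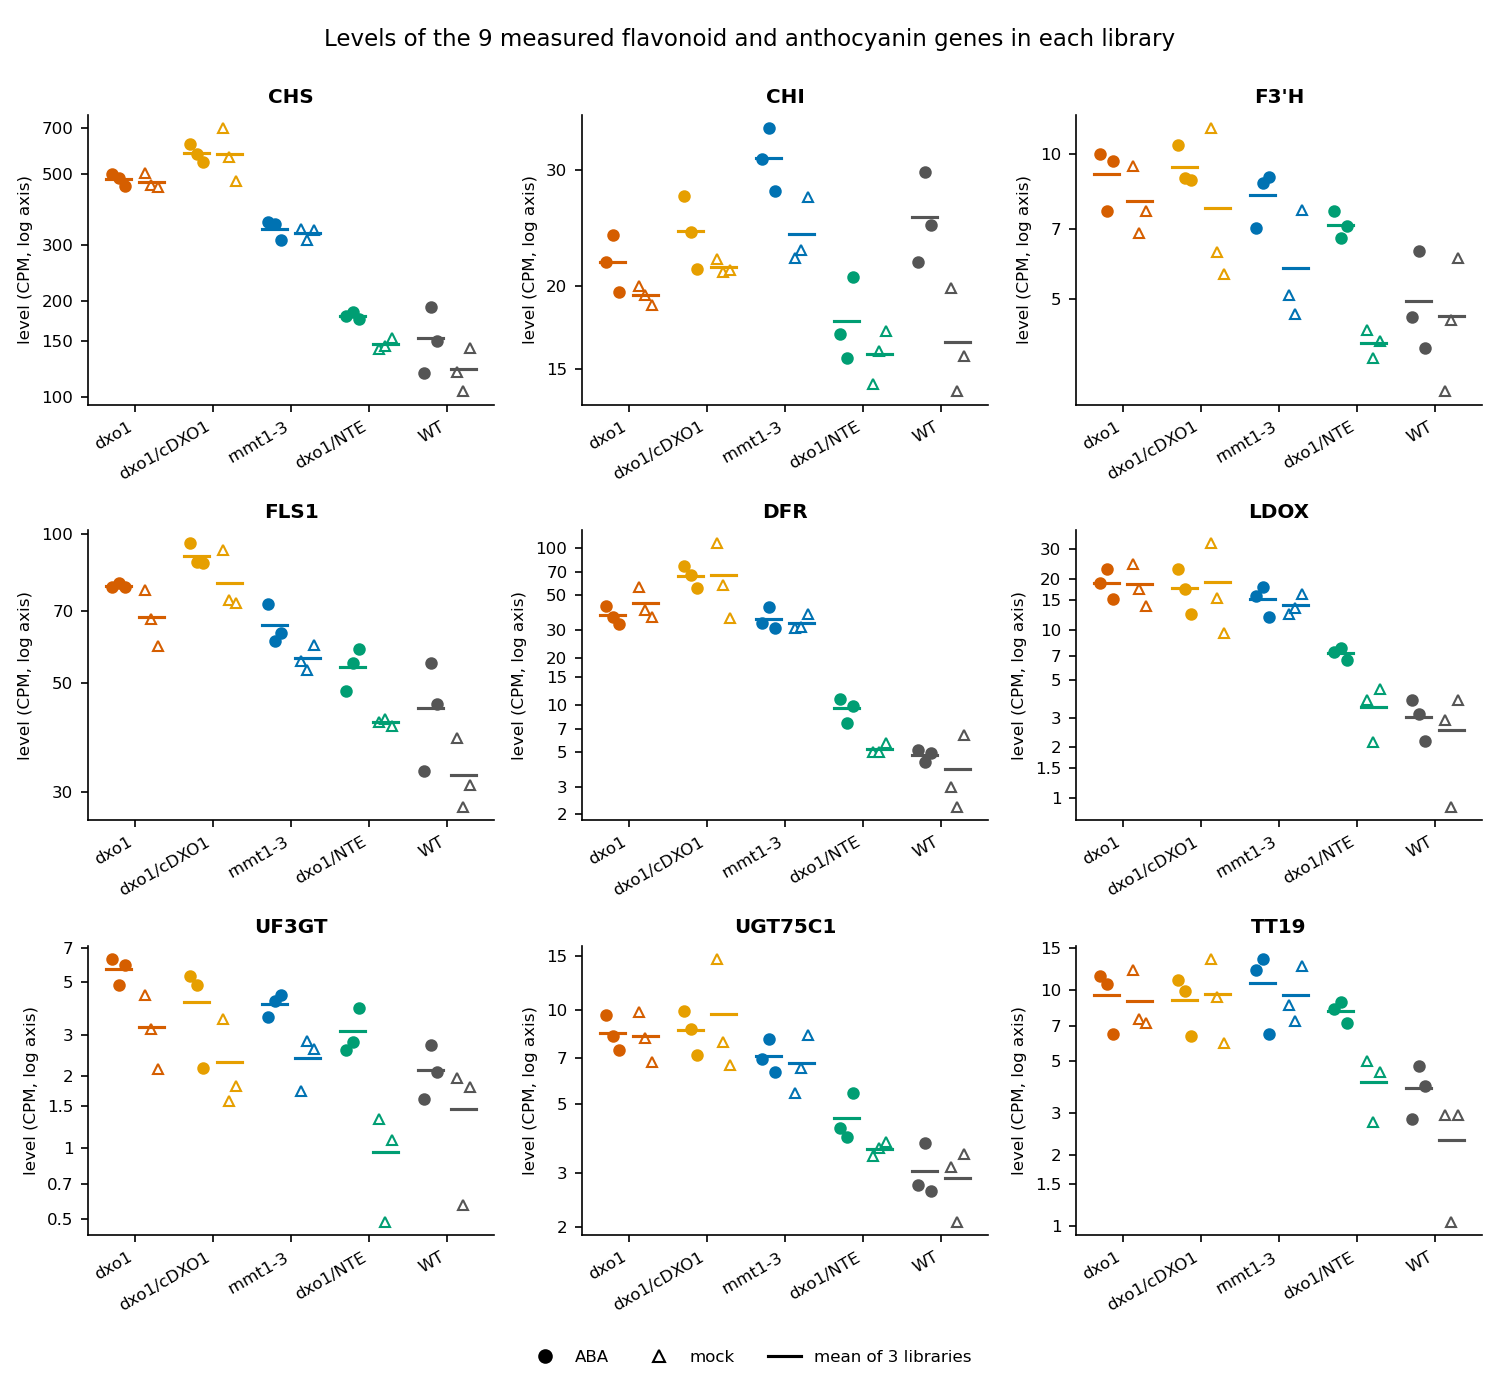
Level of each of the 9 measured genes in CPM (log axis, 1 panel per gene) in *dxo1*, *dxo1*/*cDXO1*, *rnmt1-3*, *dxo1*/*NTE* and WT seedlings after ABA (filled circles) and mock treatment (open triangles). Points are libraries in the order of their replicate numbers and lines are means of 3, and *DFR* lies between 30.8 and 107 CPM in *dxo1*, *dxo1*/*cDXO1* and *rnmt1-3* and at most at 10.9 CPM in *dxo1*/*NTE* and WT.

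Under mock treatment the pathway was higher in *dxo1*, *dxo1*/*cDXO1* and *rnmt1-3* than in WT, most of all at *DFR*. Of the 9 genes tested, 7 rose in *dxo1*, 6 in *dxo1*/*cDXO1* and 7 in *rnmt1-3*, and none fell. A gene is called here when its edgeR quasi-likelihood p, adjusted by Benjamini-Hochberg over all tested genes, is under 0.05. Over all tested genes 13% were called higher in *dxo1*, 12.1% in *dxo1*/*cDXO1* and 10.1% in *rnmt1-3*. The 9 genes had a median log2 fold change of 1.53 in *dxo1* (0.00 over all genes tested), 1.77 in *dxo1*/*cDXO1* (-0.01) and 1.23 in *rnmt1-3* (-0.01). These comparisons share the 3 WT mock libraries, so they are not separate evidence of one another. The light-harvesting gene *LHCB2.1*, 1 of the 3 green tissue markers, was also higher in these 3 lines than in WT: it had 362, 259.9 and 251 CPM in *dxo1*, 607, 424 and 321 in *dxo1*/*cDXO1*, 580.5, 384 and 261 in *rnmt1-3*, 189, 96.3 and 92.1 in *dxo1*/*NTE* and 139, 83.9 and 73.4 in WT mock seedlings. Its libraries in *rnmt1-3* and *dxo1* overlapped. The summed level of the 3 green tissue markers, which is mostly *RBCS1A* and *CAB1*, was 15234 to 15538 CPM in *dxo1*, 16889 to 20214 CPM in *dxo1*/*cDXO1*, 17821 to 20139.6 CPM in *rnmt1-3*, 16300.5 to 16884 CPM in *dxo1*/*NTE* and 17878 to 20055 CPM in WT. The part of tissue composition in the members' values was not tested.

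Among the early enzymes, *CHS* (chr5:4488476-4490264, plus strand), chalcone synthase, makes the first committed product of the pathway. Under mock treatment its level was 503, 461 and 457 CPM in the *dxo1* libraries, 696, 565 and 475 CPM in *dxo1*/*cDXO1*, 336, 311 and 333 CPM in *rnmt1-3*, 142, 145 and 153 CPM in *dxo1*/*NTE* and 119.7, 104 and 142 CPM in WT. All libraries of *dxo1*, *dxo1*/*cDXO1* and *rnmt1-3* lay above all WT libraries, and those of *dxo1*/*NTE* overlapped WT. Against WT mock, *CHS* rose 3.91-fold in *dxo1* (log2 fold change 1.97 ± 0.13 SE, edgeR adjusted p = 0.000135), 4.78-fold in *dxo1*/*cDXO1* (2.26 ± 0.17 SE, adjusted p = 0.000149) and 2.68-fold in *rnmt1-3* (1.42 ± 0.13 SE, adjusted p = 0.000524). In the order of means *dxo1*/*cDXO1* stood above *dxo1*, with libraries that overlapped, then *rnmt1-3*, whose libraries overlapped with neither *dxo1* nor *dxo1*/*NTE*.

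*CHI* (chr3:20430059-20431597, minus strand), chalcone isomerase, closes the ring of the chalcone, and it moved little. Its mock levels were 20.0, 19.4 and 18.7 CPM in *dxo1*, 22.0, 21.0 and 21.2 CPM in *dxo1*/*cDXO1*, 22.1, 22.8 and 27.3 CPM in *rnmt1-3*, 14.2, 16.0 and 17.1 CPM in *dxo1*/*NTE* and 19.9, 13.9 and 15.7 CPM in WT. WT replicate 1, the library that stood apart, was the highest of the WT libraries and overlapped *dxo1*. *CHI* rose in *rnmt1-3* (log2 fold change 0.55 ± 0.16 SE, edgeR adjusted p = 0.0449), a call that was lost without WT mock replicate 2 or 3 or without any of the 3 *rnmt1-3* mock libraries (adjusted p = 0.0976 to 0.153). It did not pass the test in *dxo1* (0.24, adjusted p = 0.251) or *dxo1*/*cDXO1* (0.39, adjusted p = 0.0865).

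*F3'H* (chr5:2560328-2563137, plus strand), a cytochrome P450, adds the hydroxyl group that separates quercetin and cyanidin compounds from kaempferol and pelargonidin ones. Its mock levels were 9.45, 6.87 and 7.61 CPM in *dxo1*, 11.3, 6.27 and 5.66 CPM in *dxo1*/*cDXO1*, 5.10, 4.66 and 7.64 CPM in *rnmt1-3*, 4.32, 3.78 and 4.10 CPM in *dxo1*/*NTE* and 3.23, 4.53 and 6.09 CPM in WT. The *dxo1* libraries lay above WT, and those of *dxo1*/*cDXO1* and *rnmt1-3* overlapped it. *F3'H* passed the test in *dxo1* just inside the threshold (log2 fold change 0.80 ± 0.25 SE, edgeR adjusted p = 0.0499), and the call was lost without WT mock replicate 2 or without any of the 3 *dxo1* mock libraries (adjusted p = 0.0885 to 0.18). Its values in *dxo1*/*cDXO1* (0.76, adjusted p = 0.122) and *rnmt1-3* (0.33, adjusted p = 0.44) did not pass.

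*FLS1* (chr5:2803833-2805606, plus strand), the main flavonol synthase, leads to flavonols and away from anthocyanins, and it rose by less than *CHS*. Its mock levels were 77.2, 67.2 and 59.4 CPM in *dxo1*, 92.7, 73.5 and 72.5 CPM in *dxo1*/*cDXO1*, 55.3, 53.2 and 59.6 CPM in *rnmt1-3*, 41.7, 42.2 and 41.0 CPM in *dxo1*/*NTE* and 38.6, 28.1 and 31.0 CPM in WT. The libraries of all 4 lines lay above those of WT. Against WT the log2 fold change was 1.07 ± 0.14 SE in *dxo1* (edgeR adjusted p = 0.00185), 1.3 ± 0.15 in *dxo1*/*cDXO1* (adjusted p = 0.000668) and 0.79 ± 0.13 in *rnmt1-3* (adjusted p = 0.00538).

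The late enzyme *DFR* (chr5:17164093-17166032, minus strand), dihydroflavonol reductase, takes the same substrates as *FLS1* towards anthocyanins, and its fold change was the largest of the 9 genes in each of these 3 comparisons. Its mock levels were 56.7, 40.3 and 36.5 CPM in *dxo1*, 107, 58.3 and 35.5 CPM in *dxo1*/*cDXO1*, 30.8, 31.5 and 37.8 CPM in *rnmt1-3*, 4.98, 5.00 and 5.74 CPM in *dxo1*/*NTE* and 3.01, 2.24 and 6.42 CPM in WT. The lowest library of the 3 mutants, at 30.8 CPM, was well above the highest WT library, at 6.42 CPM, and *dxo1*/*cDXO1* replicate 1 was the highest of all. *DFR* rose 11.5-fold in *dxo1* (log2 fold change 3.53 ± 0.36 SE, edgeR adjusted p = 0.000588), 17.4-fold in *dxo1*/*cDXO1* (4.12 ± 0.49 SE, adjusted p = 0.000791) and 8.61-fold in *rnmt1-3* (3.11 ± 0.32 SE, adjusted p = 0.000865).

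*LDOX* (chr4:12004726-12006209, minus strand), also called anthocyanidin synthase, makes the coloured anthocyanidin from the product of *DFR*. Its mock levels were 24.5, 17.6 and 13.8 CPM in *dxo1*, 32.5, 15.5 and 9.54 CPM in *dxo1*/*cDXO1*, 12.3, 13.4 and 16.3 CPM in *rnmt1-3*, 3.81, 2.13 and 4.44 CPM in *dxo1*/*NTE* and 2.90, 0.886 and 3.84 CPM in WT. As for *DFR*, none of the libraries of *dxo1*, *dxo1*/*cDXO1* or *rnmt1-3* overlapped WT, and *dxo1*/*NTE* did. The log2 fold change against WT was 2.89 ± 0.43 SE in *dxo1* (edgeR adjusted p = 0.00271), 2.93 ± 0.55 in *dxo1*/*cDXO1* (adjusted p = 0.00658) and 2.47 ± 0.39 in *rnmt1-3* (adjusted p = 0.00463).

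The sugar transferases moved unevenly. *UGT75C1* (chr4:8122188-8123835, minus strand), which adds a glucose to anthocyanins, had 9.87, 8.16 and 6.83 CPM in *dxo1*, 14.7, 7.90 and 6.66 CPM in *dxo1*/*cDXO1*, 5.41, 6.53 and 8.31 CPM in *rnmt1-3*, 3.38, 3.59 and 3.75 CPM in *dxo1*/*NTE* and 3.12, 2.08 and 3.46 CPM in WT under mock treatment. It lay above WT in every library of *dxo1*, *dxo1*/*cDXO1* and *rnmt1-3*, with log2 fold changes of 1.53 ± 0.24 SE (edgeR adjusted p = 0.0034), 1.77 ± 0.33 SE (adjusted p = 0.00675) and 1.23 ± 0.25 SE (adjusted p = 0.0127), in that order. The *rnmt1-3* call was lost without *rnmt1-3* mock replicate 2 or 3 (adjusted p = 0.0511 to 0.0578). *UF3GT* (chr5:21936746-21938396, minus strand), which extends the sugar chain of anthocyanins, was near the low end of what could be tested, with 4.41, 3.17 and 2.15 CPM in *dxo1*, 3.51, 1.58 and 1.82 CPM in *dxo1*/*cDXO1*, 1.74, 2.83 and 2.61 CPM in *rnmt1-3*, 1.32, 0.485 and 1.08 CPM in *dxo1*/*NTE* and 1.97, 0.573 and 1.81 CPM in WT. Only the *dxo1* libraries stood clear of WT, and *UF3GT* did not pass the test in *dxo1* (log2 fold change 1.18, edgeR adjusted p = 0.0911), *dxo1*/*cDXO1* (0.68, adjusted p = 0.338) or *rnmt1-3* (0.73, adjusted p = 0.268).

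*TT19* (chr5:5658416-5659661, plus strand) encodes a glutathione transferase that binds anthocyanins and carries them towards the vacuole, so it is a carrier and not a step of synthesis. Its mock levels were 12.1, 7.52 and 7.27 CPM in *dxo1*, 13.5, 9.28 and 5.96 CPM in *dxo1*/*cDXO1*, 8.63, 7.39 and 12.6 CPM in *rnmt1-3*, 4.98, 2.76 and 4.49 CPM in *dxo1*/*NTE* and 2.95, 1.04 and 2.96 CPM in WT. Again the 3 mutants stood clear of WT and *dxo1*/*NTE* did not. *TT19* rose by a log2 fold change of 1.97 ± 0.38 SE in *dxo1* (edgeR adjusted p = 0.00805), 2.06 ± 0.41 in *dxo1*/*cDXO1* (adjusted p = 0.00857) and 2.05 ± 0.37 in *rnmt1-3* (adjusted p = 0.00747).

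In *dxo1*/*NTE*, by contrast, none of the 9 genes passed the test against WT mock, and 1.6% of all tested genes did, in either direction. The edgeR count of 0 compares with 1 gene at an unadjusted p under 0.05 (*FLS1*) and 0 genes by DESeq2. *FLS1* had a log2 fold change of 0.36 ± 0.13 SE (edgeR adjusted p = 0.173), *CHS* 0.27 (adjusted p = 0.272), *TT19* 0.82 (adjusted p = 0.284) and *DFR* 0.44 (adjusted p = 0.522). The 95% interval for *DFR* ran between -0.36 and 1.23, which leaves room for a sizeable difference. Without WT mock replicate 1, *FLS1* was called higher in *dxo1*/*NTE* (log2 fold change 0.49, edgeR adjusted p = 0.00399), and 9 of the 9 genes were called higher in *dxo1*, 7 in *dxo1*/*cDXO1* and 7 in *rnmt1-3*. Leaving that library out also raised the share of all tested genes called in either direction to 14.1% in *dxo1*/*NTE*, 43.7% in *dxo1*, 40.1% in *dxo1*/*cDXO1* and 36.8% in *rnmt1-3*.

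After ABA the same genotypes stood apart from WT, with *DFR* again in the lead. Of the 9 genes, 8 were higher in *dxo1*, 8 in *dxo1*/*cDXO1* and 8 in *rnmt1-3* than in WT after ABA, beside 22.6%, 23.6% and 19.7% of all tested genes. *CHI* was the gene that did not pass in any of the 3 (log2 fold changes of -0.22, -0.06 and 0.30, edgeR adjusted p = 0.138, 0.72 and 0.055 for *dxo1*, *dxo1*/*cDXO1* and *rnmt1-3*). Without WT ABA replicate 1 alone, 1 gene was called lower in *dxo1*.

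*DFR* levels after ABA were 42.7, 36.2 and 32.9 CPM in *dxo1*, 76.6, 66.9 and 55.7 CPM in *dxo1*/*cDXO1*, 33.2, 41.8 and 30.9 CPM in *rnmt1-3*, 10.9, 7.71 and 9.86 CPM in *dxo1*/*NTE* and 5.14, 4.34 and 4.90 CPM in WT. Here WT was tightly grouped, and *dxo1*/*NTE* lay between WT and the other lines with no overlap on either side. *DFR* was 7.78-fold higher in *dxo1* (log2 fold change 2.96 ± 0.12 SE, edgeR adjusted p = 6.65e-09), 14.0-fold in *dxo1*/*cDXO1* (3.80 ± 0.13 SE, adjusted p = 3.37e-10) and 7.40-fold in *rnmt1-3* (2.89 ± 0.13 SE, adjusted p = 1.46e-08).

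*CHS* had 502, 485 and 457 CPM in *dxo1*, 623, 579.8 and 544 CPM in *dxo1*/*cDXO1*, 354, 349 and 309.9 CPM in *rnmt1-3*, 179, 185 and 176 CPM in *dxo1*/*NTE* and 119, 192 and 149.6 CPM in WT after ABA, and *LDOX* had 19.0, 23 and 15.1 CPM in *dxo1*, 22.8, 17.5 and 12.4 CPM in *dxo1*/*cDXO1*, 15.8, 17.8 and 11.9 CPM in *rnmt1-3*, 7.34, 7.75 and 6.62 CPM in *dxo1*/*NTE* and 3.80, 3.13 and 2.18 CPM in WT. For *CHS* the *dxo1*/*NTE* libraries fell inside the WT range, and for *LDOX* they lay above it. Against WT after ABA, *CHS* rose by a log2 fold change of 1.65 in *dxo1* (edgeR adjusted p = 7.63e-07), 1.93 in *dxo1*/*cDXO1* (adjusted p = 1.1e-07) and 1.14 in *rnmt1-3* (adjusted p = 2.38e-05). *LDOX* rose by 2.66, 2.55 and 2.33 in the same 3 lines (adjusted p = 5.17e-07, 1.53e-06 and 2.28e-06). *UF3GT* passed in *dxo1* (1.41, adjusted p = 0.000261), in *rnmt1-3* (0.93, adjusted p = 0.0077) and, with libraries that overlapped WT, in *dxo1*/*cDXO1* (0.95, adjusted p = 0.0265). That last call was lost without WT ABA replicate 3 or without *dxo1*/*cDXO1* ABA replicate 1 or 2 (adjusted p = 0.0782 to 0.137).

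In *dxo1*/*NTE* after ABA 3 genes were higher than in WT and 1 lower, beside 4.62% and 3.38% of all tested genes. The genes that rose were *DFR* (log2 fold change 0.98 ± 0.17 SE, edgeR adjusted p = 0.00375), *LDOX* (1.26 ± 0.20, adjusted p = 0.00251) and *TT19* (1.08 ± 0.19, adjusted p = 0.00446). The anthocyanin sugar transferases *UF3GT* and *UGT75C1* did not pass, and neither did *CHS*, *FLS1* or *F3'H*. *F3'H* had 7.61, 6.70 and 7.09 CPM in *dxo1*/*NTE* and 4.61, 6.31 and 3.96 CPM in WT, with no overlap. The *DFR* call was lost with all 30 libraries in 1 fit (adjusted p = 0.0604). *TT19* levels were 8.29, 8.89 and 7.25 CPM in *dxo1*/*NTE* and 2.84, 4.74 and 3.91 CPM in WT, with no overlap. *CHI* was the gene that fell, with 17.0, 15.6 and 20.6 CPM in *dxo1*/*NTE* and 21.8, 29.8 and 24.8 CPM in WT (-0.53 ± 0.13, adjusted p = 0.0278). Its call was lost without WT ABA replicate 2 or 3 or without *dxo1*/*NTE* ABA replicate 1 or 2 (adjusted p = 0.0866 to 0.135). Without WT ABA replicate 2, the highest of the 3 WT ABA libraries for *CHS*, *CHI* and *FLS1*, 6 genes were higher in *dxo1*/*NTE* and none lower. The share of all tested genes called in that refit is not given here, so the rise in the count is not read as particular to the members.

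**Figure D3:**
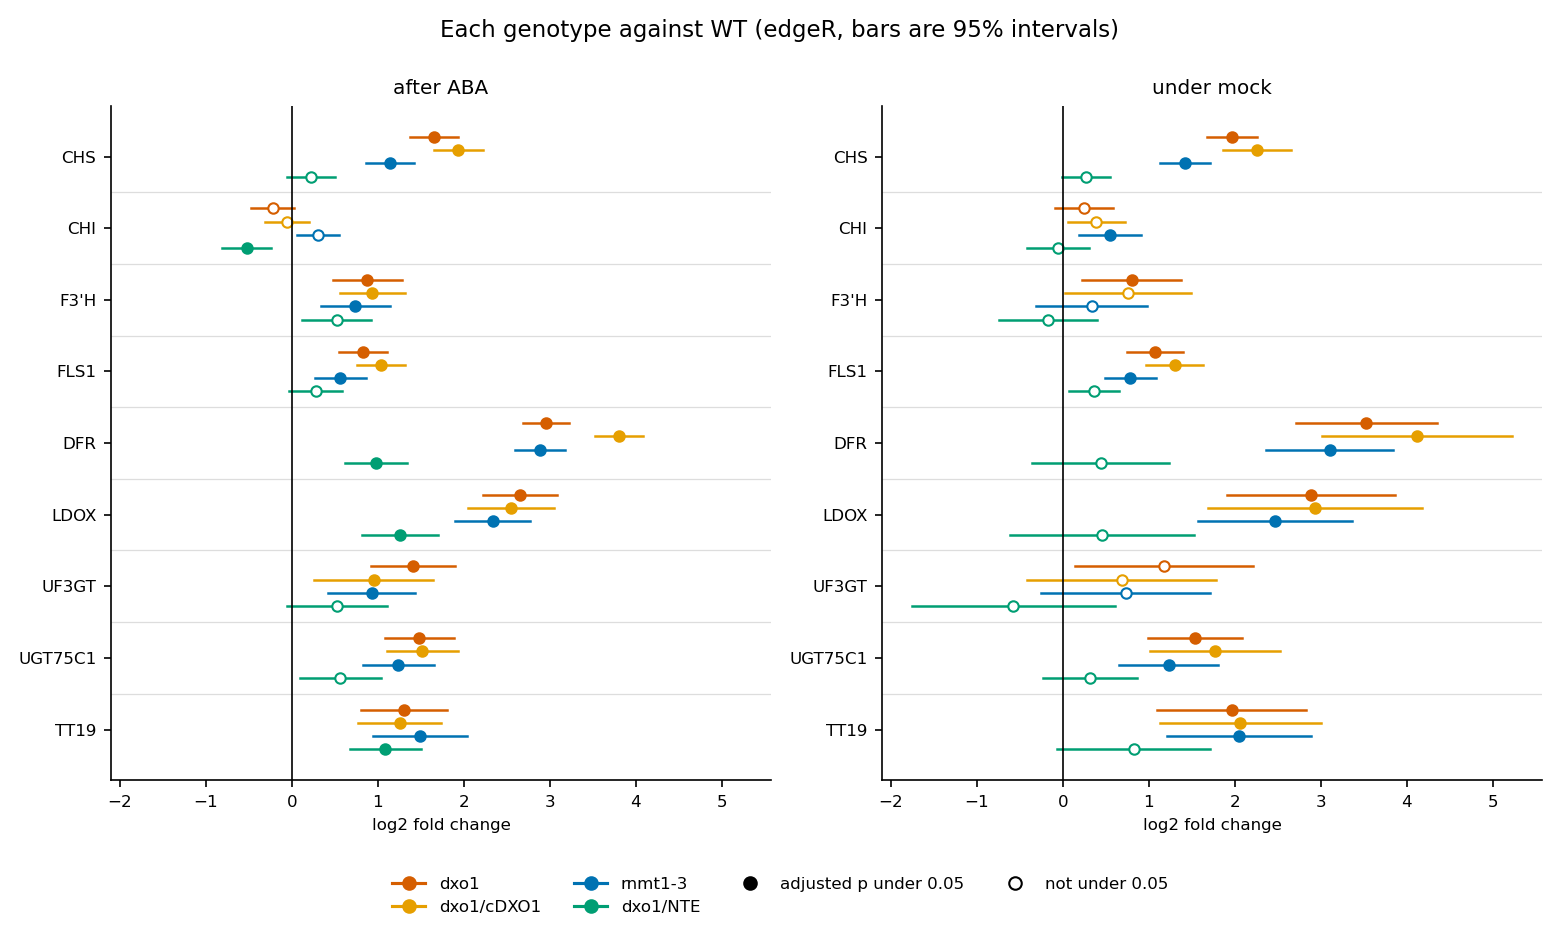
Log2 fold change against WT (horizontal axis) of each of the 9 genes after ABA (left) and under mock treatment (right) in *dxo1*, *dxo1*/*cDXO1*, *rnmt1-3* and *dxo1*/*NTE*, from edgeR, with 95% intervals as bars. Filled points have an adjusted p under 0.05: under mock treatment *dxo1* and *rnmt1-3* have 7 each, *dxo1*/*cDXO1* has 6 and *dxo1*/*NTE* has 0, and *DFR* stands farthest to the right.

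The ABA response within each genotype asks whether 3 h of ABA moved the pathway at all. It did so broadly in *dxo1*/*NTE*, where 7 of the 9 genes rose (15.4% of all tested genes). In *rnmt1-3* 3 rose (14.7% of all), in *dxo1* 1 (14.1% of all) and in WT 1 (10% of all). In *dxo1*/*cDXO1* none passed in edgeR, where 24.4% of all tested genes did in either direction. The count there was 2 at an unadjusted p under 0.05 and 0 by DESeq2. No gene was called lower in any genotype. In *dxo1*/*NTE* reads at *RNMT1* also varied, with 35.9, 60.3 and 20.3 CPM after ABA and 27.1, 21.2 and 17.1 CPM after mock treatment, against 18.5, 15.9 and 17.2 CPM in WT after ABA. *LHCB2.1* had 392, 312 and 143 CPM after ABA and 189, 96.3 and 92.1 CPM after mock treatment in *dxo1*/*NTE*. In WT it had 146, 45.4 and 44.8 CPM after ABA and 139, 83.9 and 73.4 CPM after mock treatment. The part of *RNMT1* and of *LHCB2.1* or the tissue it marks in the response was not tested.

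In *dxo1*/*NTE*, *LDOX* had 7.34, 7.75 and 6.62 CPM after ABA and 3.81, 2.13 and 4.44 CPM after mock treatment, and *DFR* had 10.9, 7.71 and 9.86 CPM after ABA and 4.98, 5.00 and 5.74 CPM after mock treatment. The groups did not overlap for either gene. *UF3GT* had 2.59, 2.80 and 3.91 CPM after ABA and 1.32, 0.485 and 1.08 CPM after mock treatment. It showed the largest response of the 9 genes (log2 fold change 1.68 ± 0.34 SE, edgeR adjusted p = 0.00164), followed by *LDOX* (1.06 ± 0.22, adjusted p = 0.0021), *TT19* (1.00 ± 0.20, adjusted p = 0.00148), *DFR* (0.86 ± 0.16, adjusted p = 0.00108) and *F3'H* (0.81 ± 0.16, adjusted p = 0.00138). *FLS1* (0.38, adjusted p = 0.00332) and *CHS* (0.30, adjusted p = 0.00352) also rose, *UGT75C1* (0.33, adjusted p = 0.241) and *CHI* (0.17, adjusted p = 0.339) did not pass, and the count of 7 was the same whichever library was left out.

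*UF3GT* was also the gene that rose in *dxo1*, with 6.29, 4.85 and 5.91 CPM after ABA and 4.41, 3.17 and 2.15 CPM after mock treatment (log2 fold change 0.81 ± 0.23 SE, edgeR adjusted p = 0.0164). The groups did not overlap, but the call was lost without *dxo1* mock replicate 2 or 3 or without *dxo1* ABA replicate 1 or 3 (adjusted p = 0.0533 to 0.0688) and with all 30 libraries in 1 fit (adjusted p = 0.105). Without *dxo1* mock replicate 1 2 genes were called higher, and without *dxo1* mock replicate 3 none was higher and 1 was called lower. In *rnmt1-3* the genes that rose were *UF3GT* (0.77, adjusted p = 0.0207), *CHI* (0.39, adjusted p = 0.0097) and *FLS1* (0.24, adjusted p = 0.0304). Only 1 of them remained in the count without *rnmt1-3* mock replicate 1 or without *rnmt1-3* ABA replicate 2, and 4 genes were called without *rnmt1-3* mock replicate 3. The *FLS1* call was lost as well without *rnmt1-3* mock replicate 2 or ABA replicate 1, and that of *UF3GT* without ABA replicate 3 (adjusted p = 0.0656 to 0.165 and 0.0659 to 0.0771 over all such losses). In *dxo1*/*cDXO1* the count was 4 without mock replicate 1, the library with 107 CPM of *DFR*, and 1 without ABA replicate 3.

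In WT, *CHI* had 21.8, 29.8 and 24.8 CPM after ABA and 19.9, 13.9 and 15.7 CPM after mock treatment, with no overlap (log2 fold change 0.65 ± 0.17 SE, edgeR adjusted p = 0.0316). The call was lost without WT mock replicate 2 or 3 or WT ABA replicate 2 or 3 (adjusted p = 0.093 to 0.123). Without WT mock replicate 1 *CHI* (0.81, adjusted p = 0.0013) and *FLS1* (0.62, adjusted p = 0.0214) both rose, beside 25% of all tested genes called in either direction. Without WT ABA replicate 1, 2 genes rose. *DFR* in WT had a log2 fold change of 0.33 (adjusted p = 0.59) and *TT19* of 0.75 (adjusted p = 0.239).

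Whether the ABA response differed from that of WT was tested in a model of genotype, treatment and their interaction over 12 libraries. None of the 9 genes passed in edgeR for *dxo1*, *dxo1*/*cDXO1*, *rnmt1-3* or *dxo1*/*NTE*, where 0.272%, 0.233%, 0.126% and 0% of all tested genes did. At an unadjusted p under 0.05 there were 1, 1, 0 and 2 genes, in the same order, and DESeq2 called 0 in each. The wide response of *dxo1*/*NTE* is therefore not shown to differ from that of WT.

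**Figure D4:**
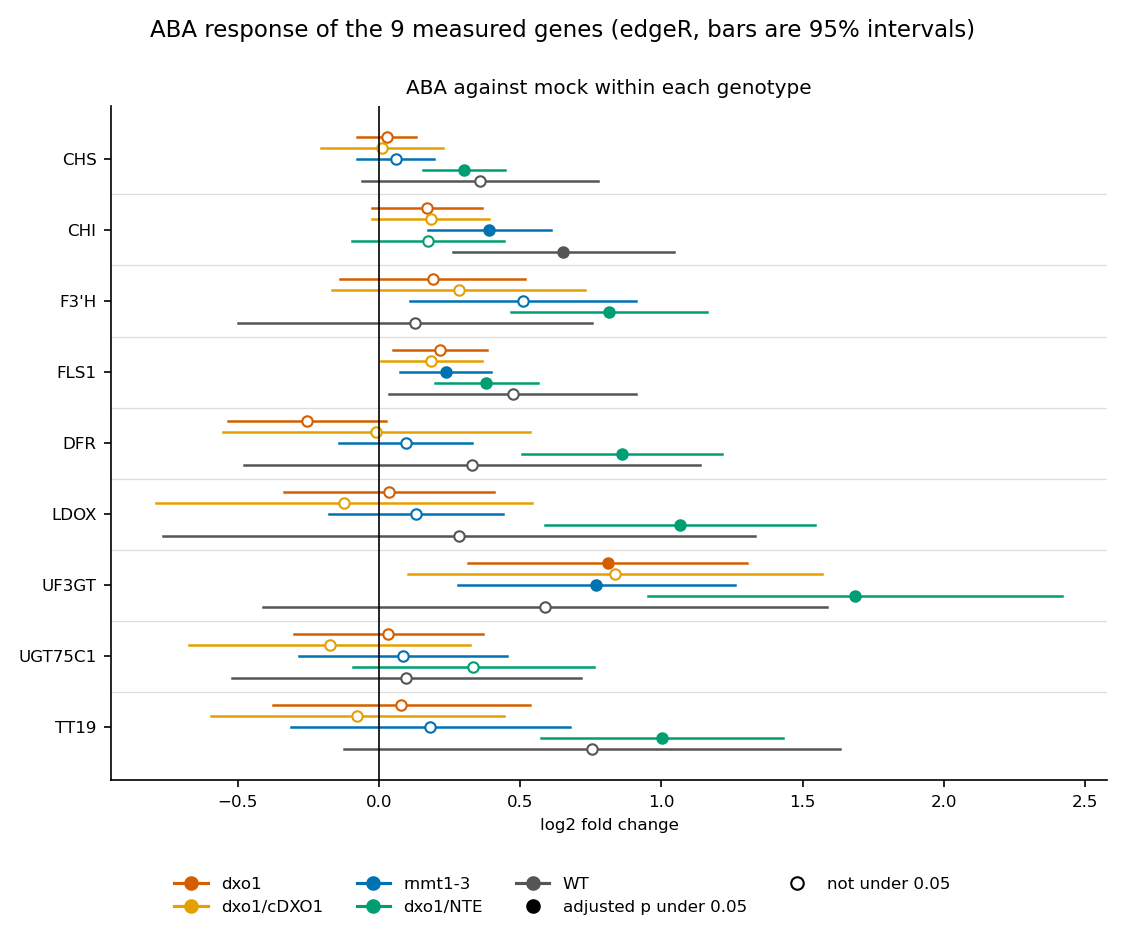
Log2 fold change of ABA against mock treatment (horizontal axis) for each of the 9 genes within *dxo1*, *dxo1*/*cDXO1*, *rnmt1-3*, *dxo1*/*NTE* and WT, from edgeR, with 95% intervals as bars and filled points for an adjusted p under 0.05. Filled points number 1, 0, 3, 7 and 1 in that order of genotypes, and the WT intervals are the widest for most genes.

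The pathway was lower in the line with the extension alone than in *dxo1*. Under mock treatment 9 of the 9 genes were lower in *dxo1*/*NTE* than in *dxo1* (17.8% of all tested genes), and 8 by DESeq2. The values per library are those given above. The groups did not overlap for any of the 9 genes, but the share of all tested genes without overlap was not computed. *DFR* fell most (log2 fold change -3.09 ± 0.16 SE, edgeR adjusted p = 1.8e-07), then *LDOX* (-2.42 ± 0.25, adjusted p = 2.12e-05), *UF3GT* (-1.75 ± 0.37, adjusted p = 0.00324), *CHS* (-1.70 ± 0.07, adjusted p = 2.15e-08), *UGT75C1* (-1.22 ± 0.18, adjusted p = 0.000271) and *TT19* (-1.14 ± 0.24, adjusted p = 0.00348). *F3'H* (-0.98, adjusted p = 0.000916), *FLS1* (-0.71, adjusted p = 0.000103) and *CHI* (-0.30, adjusted p = 0.0349) fell by less, and the *CHI* call was lost without any library other than *dxo1*/*NTE* mock replicate 3 (adjusted p = 0.054 to 0.114).

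After ABA 6 genes were lower in *dxo1*/*NTE* than in *dxo1* (18.6% of all tested genes). These were *DFR* (log2 fold change -1.98 ± 0.13 SE, edgeR adjusted p = 4.22e-08), *CHS* (-1.42, adjusted p = 3.7e-10), *LDOX* (-1.39, adjusted p = 3.98e-06), *UGT75C1* (-0.92, adjusted p = 0.000735), *UF3GT* (-0.88, adjusted p = 0.00348) and *FLS1* (-0.55, adjusted p = 3.66e-05). *TT19* had 8.29, 8.89 and 7.25 CPM in *dxo1*/*NTE* and 11.4, 10.6 and 6.47 CPM in *dxo1* (-0.22, adjusted p = 0.381), with overlapping groups. *F3'H* (-0.35, adjusted p = 0.0694) and *CHI* (-0.30, adjusted p = 0.0505) did not pass either.

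No member was called lower in the line with the catalytic part alone than in *dxo1*. Mean *UF3GT* levels were lower there, at 2.30 against 3.24 CPM under mock treatment and 4.11 against 5.68 CPM after ABA. Under mock treatment the edgeR count was 0 in both directions (0.857% of all tested genes), 1 gene had an unadjusted p under 0.05 (*CHS*) and DESeq2 called 0. Deviations of same-numbered libraries of these 2 groups from their group means correlated weakly (0.111, 0.133 and 0.235), all over the limit of 0.1 chosen here. With the replicate as a block 3 genes were higher in *dxo1*/*cDXO1* (6.27% of all tested genes in either direction): *DFR* (log2 fold change 0.50, edgeR adjusted p = 0.00304), *CHS* (0.28, adjusted p = 0.00319) and *FLS1* (0.23, adjusted p = 0.0143). Without *dxo1*/*cDXO1* mock replicate 3 and with no block, 2 genes were higher. After ABA the same 3 genes were higher in *dxo1*/*cDXO1* than in *dxo1* with no block (3.94% of all tested genes), *DFR* by a log2 fold change of 0.83 ± 0.10 SE (edgeR adjusted p = 2.32e-05), *CHS* by 0.27 ± 0.05 (adjusted p = 0.00181) and *FLS1* by 0.20 ± 0.05 (adjusted p = 0.0317). The groups of all 3 genes did not overlap after ABA, and the *FLS1* call was lost without any library other than *dxo1*/*cDXO1* ABA replicate 3 (adjusted p = 0.0656 to 0.166). With all 30 libraries in 1 fit none of the 3 was called (adjusted p = 0.13 for *DFR*, 0.44 for *CHS* and 0.676 for *FLS1*), and all 3 changes are below the size that the thresholds used in the study ask for. After ABA *LHCB2.1* had 722, 582 and 427 CPM in *dxo1*/*cDXO1* and 450, 436 and 254 CPM in *dxo1*. The summed level of the 3 green tissue markers was 19535 to 20622 CPM in *dxo1*/*cDXO1* and 16559 to 17446 CPM in *dxo1*, with no overlap. The part of tissue composition in these changes was not tested.

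*rnmt1-3* differed from *dxo1* in opposite directions at neighbouring steps. Under mock treatment *CHI* was higher in *rnmt1-3* than in *dxo1* (9.95% of all tested genes were), with a log2 fold change of 0.30 ± 0.10 SE (edgeR adjusted p = 0.0431). *CHS* (-0.54 ± 0.06, adjusted p = 5.87e-05), *DFR* (-0.43, adjusted p = 0.0416) and *FLS1* (-0.29, adjusted p = 0.0339) were lower (10.3% of all). The *CHS* call was kept whichever library was left out. The *CHI* call was lost without any library other than *rnmt1-3* mock replicate 1 (adjusted p = 0.0594 to 0.153), and the *DFR* and *FLS1* calls were lost without *dxo1* mock replicate 1 or 2 or *rnmt1-3* mock replicate 1 or 2 (adjusted p = 0.0502 to 0.201 for *DFR* and 0.0773 to 0.165 for *FLS1*), which left 1 gene lower. With all 30 libraries in 1 fit *CHS* alone was called (adjusted p = 0.114 for *CHI*, 0.288 for *DFR* and 0.149 for *FLS1*), while 4 were lower without *dxo1* mock replicate 3 or *rnmt1-3* mock replicate 3.

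After ABA *CHI* was again higher in *rnmt1-3*, with 31.2, 34.8 and 27.9 CPM in *rnmt1-3* and 21.8, 23.9 and 19.6 CPM in *dxo1* (log2 fold change 0.52 ± 0.10 SE, edgeR adjusted p = 0.000518, 13.6% of all tested genes higher). These groups did not overlap. *CHS* (-0.52, adjusted p = 2.55e-06), *FLS1* (-0.27, adjusted p = 0.00445) and *UF3GT* (-0.49, adjusted p = 0.0486) were lower (13.3% of all), the *UF3GT* call being lost without *dxo1* ABA replicate 1 or 3 or any of the 3 *rnmt1-3* ABA libraries (adjusted p = 0.054 to 0.165). All comparisons with *dxo1* under 1 treatment share its 3 libraries.

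**Figure D5:**
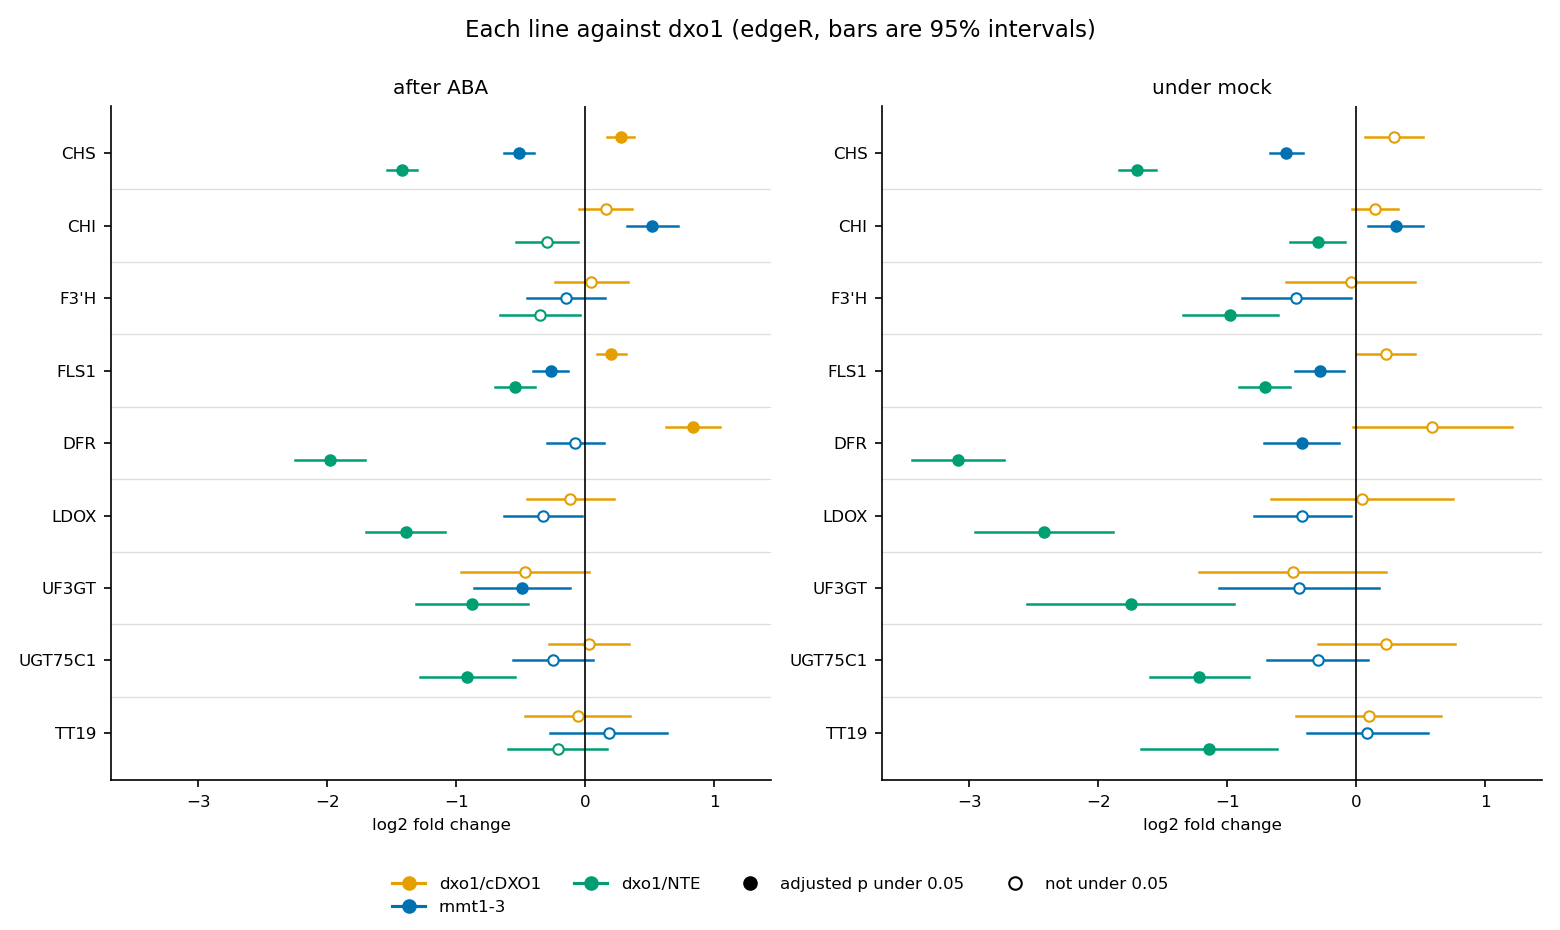
Log2 fold change against *dxo1* (horizontal axis) of each of the 9 genes after ABA (left) and under mock treatment (right) in *dxo1*/*cDXO1*, *rnmt1-3* and *dxo1*/*NTE*, from edgeR, with 95% intervals as bars and filled points for an adjusted p under 0.05. In *dxo1*/*NTE* all 9 genes lie below 0 in both panels, 9 of them filled under mock treatment and 6 after ABA, with *DFR* farthest out, and *CHI* in *rnmt1-3* lies above 0 in both panels.

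Because *DFR* and *FLS1* take the same substrates, their ratio per transcript length was also computed. Under mock treatment *DFR* over *FLS1* in TPM was 0.692 ± 0.0788 in *dxo1*, 0.865 ± 0.354 in *dxo1*/*cDXO1*, 0.632 ± 0.0415 in *rnmt1-3*, 0.134 ± 0.0130 in *dxo1*/*NTE* and 0.129 ± 0.0786 in WT (SD, n = 3 each). The lowest *dxo1*/*cDXO1* library was at 0.522 and the highest WT library at 0.220, and *dxo1*/*NTE* reached 0.149, so neither of these groups overlapped *dxo1*, *dxo1*/*cDXO1* or *rnmt1-3*. After ABA the ratio was 0.504 ± 0.0690 in *dxo1*, 0.780 ± 0.0903 in *dxo1*/*cDXO1*, 0.581 ± 0.132 in *rnmt1-3*, 0.190 ± 0.0467 in *dxo1*/*NTE* and 0.121 ± 0.0407 in WT. *CHS* over *CHI* under mock treatment was 15.95 ± 0.434 in *dxo1*, 17.6 ± 3.01 in *dxo1*/*cDXO1*, 8.95 ± 1.00 in *rnmt1-3*, 6.09 ± 0.367 in *dxo1*/*NTE* and 4.92 ± 0.996 in WT. The *rnmt1-3* ratio thus lay between those of *dxo1* and WT, with no overlap with either.

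The ranking of libraries within a group was compared between genes. The library with the most *DFR* reads was also the highest of its group for *LDOX* and *UGT75C1* in 8 of the 10 groups, for *TT19* and *F3'H* in 7, for *CHS* and *CHI* in 6, and for *FLS1* and *UF3GT* in 4. With 3 libraries in a group unrelated genes also share a top library in some groups. The share over all genes was not computed, so these counts are a description only. In *dxo1*/*cDXO1* mock seedlings this was replicate 1, with 107 CPM of *DFR* against 58.3 and 35.5 CPM in the others, and it was the highest of its group for the other 8 genes too. Across all 30 libraries the correlation of log2 CPM with the mean of the 9 standardised genes was 0.961 for *LDOX*, 0.958 for *UGT75C1*, 0.945 for *DFR*, 0.937 for *FLS1*, 0.929 for *CHS*, 0.907 for *TT19*, 0.860 for *F3'H*, 0.826 for *UF3GT* and 0.619 for *CHI* (Pearson, n = 30 libraries). Each gene is part of that mean and the libraries share their groups, so these values only describe how alike the patterns were, with *CHI* the least alike.

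The genes outside the set whose pattern over the 30 libraries was most like the mean of the 9 members were, among 19060 candidates with a mean of at least 1 CPM, *5MAT* (AT3G29590, Pearson r = 0.962), *OMT1* (AT5G54160, 0.951), *SOUL-1* (AT2G37970, 0.941), AT2G38730 (0.934) and AT4G23680 (0.934). *5MAT* adds a malonyl group to anthocyanins, and *OMT1* methylates flavonols and lignin precursors. Under mock treatment *5MAT* ran between 2.1 and 2.85 CPM in *dxo1*, between 2.22 and 5.04 CPM in *dxo1*/*cDXO1*, between 2.25 and 3.05 CPM in *rnmt1-3*, between 0.485 and 0.992 CPM in *dxo1*/*NTE* and between 0.208 and 0.823 CPM in WT.

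The other enzymes of the pathway were read from lists by function. Of 8 genes of phenylpropanoid entry, which make coumaroyl-CoA, 8 were tested, and under mock treatment 5 were higher than in WT in each of *dxo1* (13% of all tested genes) and *dxo1*/*cDXO1* (12.1%). In *rnmt1-3* 4 were higher (10.1% of all) and 1 lower (8.76%), and in *dxo1*/*NTE* 2 were higher (1.6% of all in either direction). Without WT mock replicate 1 the entry genes called higher numbered 5, 5, 5 and 5 in the same order of genotypes, beside 22.4%, 20.6%, 19.2% and 6.44% of all tested genes. *PAL2*, a phenylalanine ammonia-lyase, rose by a log2 fold change of 1.26 in *dxo1*, 1.3 in *dxo1*/*cDXO1* and 0.77 in *rnmt1-3*. *4CL1*, which makes coumaroyl-CoA, rose by 1.10, 0.96 and 0.95 in these lines and by 0.90 in *dxo1*/*NTE*, and *C4H*, the cinnamate hydroxylase, by 0.82, 0.70 and 0.55 and by 0.69 in *dxo1*/*NTE*. *PAL1* rose by 0.76, 0.57 and 0.46. So these 2 entry genes passed against WT in *dxo1*/*NTE*, where none of the 9 members did with all WT mock libraries in.

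Of 17 other flavonoid and anthocyanin genes, 14 were tested in *dxo1* and 8 rose against WT mock, 13 in *dxo1*/*cDXO1* with 7 higher and 1 lower, 14 in *rnmt1-3* with 7 higher, and 13 in *dxo1*/*NTE* with 1 lower. Over all tested genes 13%, 12.1% and 10.1% were called higher in *dxo1*, *dxo1*/*cDXO1* and *rnmt1-3*, 11.4% were lower in *dxo1*/*cDXO1*, and 1.6% were called in *dxo1*/*NTE*. Without WT mock replicate 1 the counts were 8 higher and 2 lower in *dxo1*, 7 and 2 in *dxo1*/*cDXO1*, 7 and 1 in *rnmt1-3*, and 2 and 1 in *dxo1*/*NTE*. Of all tested genes 22.4% were then called higher and 21.2% lower in *dxo1*, and 20.6% and 19.5% in *dxo1*/*cDXO1*. In *rnmt1-3* these shares were 19.2% and 17.6%, and in *dxo1*/*NTE* 6.44% and 7.66%. Those that rose in all of *dxo1*, *dxo1*/*cDXO1* and *rnmt1-3* are known to decorate flavonoids or feed sugars to them, apart from *FLS3*, a flavonol synthase of low activity. They were *5MAT* (log2 fold change 2.56 in *dxo1*, 2.91 in *dxo1*/*cDXO1* and 2.59 in *rnmt1-3*), *SCPL10*, an acyltransferase of anthocyanins (2.0, 2.47 and 2.56), *UGT78D2*, a glucosyltransferase of flavonols and anthocyanins (1.57, 1.71 and 0.97), *OMT1* (1.11, 1.26 and 1.12), *FLS3* (0.92, 0.56 and 0.55), *UGT78D1*, a flavonol rhamnosyltransferase (0.67, 0.84 and 0.53), and *RHM1*, which makes UDP-rhamnose (0.55, 0.41 and 0.53). *UGT89C1* and *UGT73C6* had 0 counts in all libraries and, like *F3H*, lie almost wholly inside opposite-strand genes (99.6% and 100% of their exon bases). Against *dxo1*, 7 of these genes were lower and 1 higher in *dxo1*/*NTE*, under mock treatment and after ABA alike, beside 17.8% lower and 14.8% higher of all tested genes under mock treatment, and 18.6% lower and 17.2% higher after ABA.

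Among 20 regulators of the pathway, 15 were tested in *dxo1* and 4 rose against WT mock, 15 in *dxo1*/*cDXO1* with 4 higher, 16 in *rnmt1-3* with 3 higher and 16 in *dxo1*/*NTE* with 1 higher, and none fell. The shares called higher over all tested genes were 13%, 12.1% and 10.1% in the 3 mutants, and 1.6% were called in either direction in *dxo1*/*NTE*. Of all tested genes 11.4% were lower in *dxo1*/*cDXO1* and 8.76% in *rnmt1-3*. Whether the regulators as a list are set apart from all genes was not tested. Without WT mock replicate 1 those called higher numbered 4 in *dxo1*, 5 for *dxo1*/*cDXO1*, 6 for *rnmt1-3* and 3 for *dxo1*/*NTE*, and none was lower. The shares of all tested genes called higher were then 22.4%, 20.6%, 19.2% and 6.44%, and those called lower 21.2%, 19.5%, 17.6% and 7.66%. *TT8*, the bHLH partner in the complex that turns on the late genes, ran between 2.73 and 4.18 CPM in *dxo1*, between 2.47 and 3.16 CPM in *dxo1*/*cDXO1*, between 1.54 and 3.71 CPM in *rnmt1-3*, between 0.873 and 1.79 CPM in *dxo1*/*NTE* and between 0.417 and 1.15 CPM in WT under mock treatment. It rose by a log2 fold change of 2.16 in *dxo1* (edgeR adjusted p = 0.00492), 1.82 in *dxo1*/*cDXO1* (adjusted p = 0.00877) and 1.65 in *rnmt1-3* (adjusted p = 0.0385). *MYBL2*, a repressor of the same complex, rose with it by 2.15, 2.2 and 2.0 in these lines (adjusted p = 0.00552, 0.00387 and 0.0075), and *LBD37*, a repressor of anthocyanin genes linked to nitrogen, by 0.95, 1.07 and 0.77 and by 0.67 in *dxo1*/*NTE*.

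Other regulators are named here after their values were seen. The flavonol MYB factors *MYB12* and *MYB111* had log2 fold changes of 0.04 and -0.24 in *dxo1* against WT mock and did not pass (edgeR adjusted p = 0.907 and 0.537), nor did the WD40 gene *TTG1* (0.14, adjusted p = 0.335). Of the anthocyanin MYB genes, *MYB113* had 0 counts, *MYB114* at most 5 and *PAP2* at most 9 in a library, so a difference in them was not detectable at this depth. *PAP1* reached 74 counts, but was at most at 1.08 CPM in the mock libraries. With all WT mock libraries in, it was not among the genes called higher in *rnmt1-3* or *dxo1*/*NTE*. Its WT mock level ran between 0.0521 and 0.547 CPM, and replicate 1 was the highest of these libraries. The calls that follow therefore depend on leaving that library out, at a level near the floor. Without WT mock replicate 1 *PAP1* was called higher than in WT mock in *dxo1*/*cDXO1* (log2 fold change 2.35, edgeR adjusted p = 0.0249). It was also called higher in *rnmt1-3* (2.22, adjusted p = 0.0488) and *dxo1*/*NTE* (2.87, adjusted p = 0.0254), and in *dxo1* it was too low to be tested. Of the 5 seed coat genes of the proanthocyanidin branch, *BAN*, the reductase that uses the product of *LDOX*, the transporter *TT12*, the laccase *TT10* and the regulator *TT2* had at most 9 counts in a library. *AHA10*, a proton pump, was the only testable gene of the list and was not called in any comparison.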

How the data were processed

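The authors deposited 1 table of raw counts per gene for 32833 genes in 30 libraries, with a gene length column (unit other, in bases). Per the labels and the methods, poly(A) RNA reads were checked with FastQC 0.11.8, aligned to TAIR10 with HISAT2 2.2.1 and counted with featureCounts (Subread 2.0.8). The strand setting, annotation version and treatment of reads in overlapping genes are not given in the sources used here. No column was left out, and no row lacked a gene name. Names, positions and promoters came from RefSeq TAIR10.1, which holds 32548 of the genes, 32370 of them (99.5%) with the deposited length as the sum of their exons.

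Each comparison was fitted on its 6 libraries (12 for the interaction) with edgeR 4.0.16 in R 4.3.3: filterByExpr (10 counts, 15 in total), TMM scaling, quasi-likelihood test, Benjamini-Hochberg adjustment over all tested genes, and a threshold of 0.05. There were 19 pairwise comparisons and 4 interactions. CPM used TMM factors over 30 libraries, log2 CPM a prior count of 2, and TPM the counts and lengths. Alternatives were DESeq2 1.42.0, RLE scaling, no filter, 1 fit over 30 libraries, the thresholds used in the study (p under 0.05 before adjustment, with a log2 fold change beyond 1 in size), a replicate block, and each library left out in turn. The procedure was tested on simulated counts.

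Deviations of same-numbered libraries from their group means were correlated. In mock *dxo1*/*cDXO1* and *dxo1* all 3 correlations were over 0.1 (0.111, 0.133 and 0.235), so the block is given beside that result. Nothing in the labels says what a number marks.

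The members and the other lists were chosen with earlier results of these data known. All 10 members are named. From the other lists the genes called in *dxo1*, *dxo1*/*cDXO1* and *rnmt1-3* against WT mock are named, and the 5 genes most like the members. Others are marked as chosen after their values were seen.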

Additional observations from a re-analysis of the deposited data

How the results depend on the processing

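Members called higher against WT kept their counts within 1.5 times for *dxo1*, *dxo1*/*cDXO1* and *rnmt1-3* under every alternative, with 1 exception: under the thresholds used in the study (p under 0.05 before adjustment, with a log2 fold change beyond 1 in size), 5 members were higher in *rnmt1-3* ABA, against 8. The same thresholds, which drop changes below 2-fold by construction, gave 0 members lower in *dxo1*/*NTE* ABA against WT ABA, 0, 0, 3 and 0 higher after ABA in *dxo1*, *rnmt1-3*, *dxo1*/*NTE* and WT, and, against *dxo1*, 0 higher and 0 lower in *rnmt1-3* mock, 0 higher and 0 lower in *rnmt1-3* ABA, 3 lower in *dxo1*/*NTE* ABA and 0 higher in *dxo1*/*cDXO1* ABA. With all 30 libraries in 1 fit, 0, 1 and 3 members rose after ABA in *dxo1*, *rnmt1-3* and WT, and against *dxo1* there were 0 higher and 1 lower in *rnmt1-3* mock, 1 lower in *rnmt1-3* ABA and 0 higher in *dxo1*/*cDXO1* ABA. With no filter, 2 rose after ABA in *dxo1* and 1 in *dxo1*/*cDXO1*. DESeq2 called 0 higher in *rnmt1-3* mock against *dxo1* mock. The cause of these shifts was not tested.

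The replicate block gave 3 members higher in *dxo1*/*cDXO1* mock against *dxo1* mock, 2 higher and 1 lower after ABA in *dxo1*, 2 higher in *dxo1*/*cDXO1* and 0 in WT. It moved no other count by more than 1.5 times. In the other 18 comparisons not all 3 same-numbered correlations were over 0.1, the limit chosen here. In *rnmt1-3* mock against *dxo1* mock they were 0.0889, 0.132 and 0.236, and all 6 libraries correlated best with their own number. *LHCB2.1* also fell from replicate 1 to replicate 3 in every group. Whether same-numbered libraries share a batch was not tested. Same-numbered correlations ran between -0.02 and 0.24 over 19 comparisons, and in 7 of them all 6 libraries correlated best with their own number.

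Leaving out 1 library at a time gave counts higher against WT of 6 to 9 (*dxo1* mock), 6 to 7 (*dxo1*/*cDXO1* mock), 5 to 7 (*rnmt1-3* mock), 0 to 1 (*dxo1*/*NTE* mock), 8 to 8 (*dxo1* ABA), 7 to 8 (*dxo1*/*cDXO1* ABA), 8 to 9 (*rnmt1-3* ABA) and 3 to 6 (*dxo1*/*NTE* ABA), with 0 to 1 lower in *dxo1* ABA and in *dxo1*/*NTE* ABA. After ABA the counts were 0 to 2 higher and 0 to 1 lower in *dxo1*, 0 to 4 higher in *dxo1*/*cDXO1*, 1 to 4 in *rnmt1-3*, 7 to 7 in *dxo1*/*NTE* and 0 to 2 in WT. Against *dxo1* they were 8 to 9 lower in *dxo1*/*NTE* mock, 6 to 8 lower in *dxo1*/*NTE* ABA, 0 to 2 higher in *dxo1*/*cDXO1* mock, 2 to 3 higher in *dxo1*/*cDXO1* ABA, 0 to 1 higher and 1 to 4 lower in *rnmt1-3* mock, and 1 to 1 higher and 2 to 3 lower in *rnmt1-3* ABA. No interaction call appeared. Of these refits, only those without WT mock replicate 1 are given with the share of all tested genes called. The other counts are therefore not read as particular to the members. Of the 86 called member values none changed sign. RLE scaling took 1 below the threshold, DESeq2 3, no filter 0, the block 4, the single fit 15 and the study thresholds 38, and leaving out libraries took 61 of 516. At these depths genes near 1 CPM, such as *UF3GT*, limit what could be called.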

Other observations

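Several genes around the pathway responded to ABA in all 5 genotypes, and those named here were chosen after their values were seen. *PAL3* and *PAL4*, both phenylalanine ammonia-lyases, moved in opposite directions in every genotype. The log2 fold change of ABA against mock treatment for *PAL4* was 1.27 in *dxo1*, 1.48 in *dxo1*/*cDXO1*, 1.93 in *rnmt1-3*, 1.48 in *dxo1*/*NTE* and 2.03 in WT. For *PAL3* it was -1.56, -1.37, -1.73, -1.78 and -2.08 in the same order, and all 10 values passed the test. *PAL2* fell in all 5 genotypes, by 0.74 on the log2 scale in WT and by 0.25 in *dxo1*.

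Among the regulators, *PAP1*, the MYB partner of *TT8*, rose with ABA in all 5 genotypes, with log2 fold changes of 3.01 in *dxo1*, 1.85 in *dxo1*/*cDXO1*, 2.07 in *rnmt1-3*, 1.25 in *dxo1*/*NTE* and 3.14 in WT. Its level was 1.32 to 3.73 CPM in the 15 ABA libraries and at most 1.08 CPM in the 15 mock libraries. *TT8* rose in all 5 as well, between 0.81 in *dxo1* and 1.64 in WT. The repressors *LBD38* and *LBD39* fell in all 5, *LBD38* between -0.93 in *dxo1*/*cDXO1* and -1.29 in *dxo1*/*NTE* and *LBD39* between -0.88 in WT and -1.16 in *dxo1*/*NTE*. *DFR*, a known target of *PAP1* and *TT8*, passed the ABA test in *dxo1*/*NTE* only among the 5 genotypes, and none of the interaction tests set that genotype apart from WT.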
